A study of Mus musculus with 6 samples.

Results

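Variable (V) segments are the germline pieces that form the antigen-binding end of antibodies. They lie in the heavy chain locus (Ighv), the kappa light chain locus (Igkv) and the lambda light chain locus (Iglv), and each developing B cell joins 1 of them to a joining (J) segment, in the heavy chain with a diversity (D) segment between. The progeny of 1 B cell share the joined segments, so a mixed B cell population spreads its V segment RNA over many segments, and a clone places it on few. The segments were examined in RNA-seq of 3 peripheral T-cell lymphomas (PTCL) from Dnmt3b+/- mice. The question was how many V segments the B lineage RNA in these T cell tumors was spread over. Members were the genes whose symbol starts with Ighv, Igkv or Iglv, and they numbered 7 of the 34245 genes of the table.

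The 3 tumors came from lymph nodes of terminally sick mice of the FVB strain, given as FVB/N in the paper's methods. The mice carried 1 inactivated and 1 wild-type Dnmt3b allele in all tissues, from a conventional knockout, and Dnmt3b is a DNA methyltransferase. Their ages were not given in the sources used here. The tissue was bulk, so B cells, T cells and other cells were measured together, and fewer cells of a type and less RNA per cell cannot be told apart. The values are FPKM, the reads on a gene divided by the length of its exons and the depth of the library, per kilobase and per 1000000 reads. The recovered library depths were 30726570, 18969988 and 20770928 reads for tumors 1, 2 and 3. All tumors form 1 group, so values are a description with no test.

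The T cell label fitted the T cell genes. Cd3e, a chain of the T cell receptor (TCR) complex, had 56.4, 78.1 and 65.3 FPKM in tumors 1, 2 and 3, the order kept below. Cd8a, the coreceptor of cytotoxic T cells, had 259, 122 and 218 FPKM. The 13 genes of a T cell list summed to 1777, 1621 and 1926 FPKM, with Cd8b1, Cd8a and Lck the highest by their mean over tumors. All 13 had reads in each tumor.

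GENCODE M21, on the same mm10 build, names 348 gene models Ighv, Igkv or Iglv, and 7 of them matched rows by their coordinates. These were 4 of 185 Ighv models, 3 of 160 Igkv models and 0 of 3 Iglv models, and the other 341 models were not analysed here. All 7 matched models had a transcript typed as something other than a V gene or V pseudogene, and 0 of the 341 others did. In 5 of them, Igkv4-54, Igkv4-62, Igkv4-71, Ighv6-4 and Ighv6-5, the row had the coordinates of a transcript typed as protein coding. In Ighv5-8 and Ighv1-13 it had those of a model of the type IG LV gene on the plus strand, opposite to the V segment of the same name. Of the V genes of the TCR, 144 of 144 annotated genes had a row, against 5 of 218 immunoglobulin V genes. With so few segments, the values below cover 2.01% of the models, and they cannot separate mixed from clonal B cells.

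**Figure D1:**
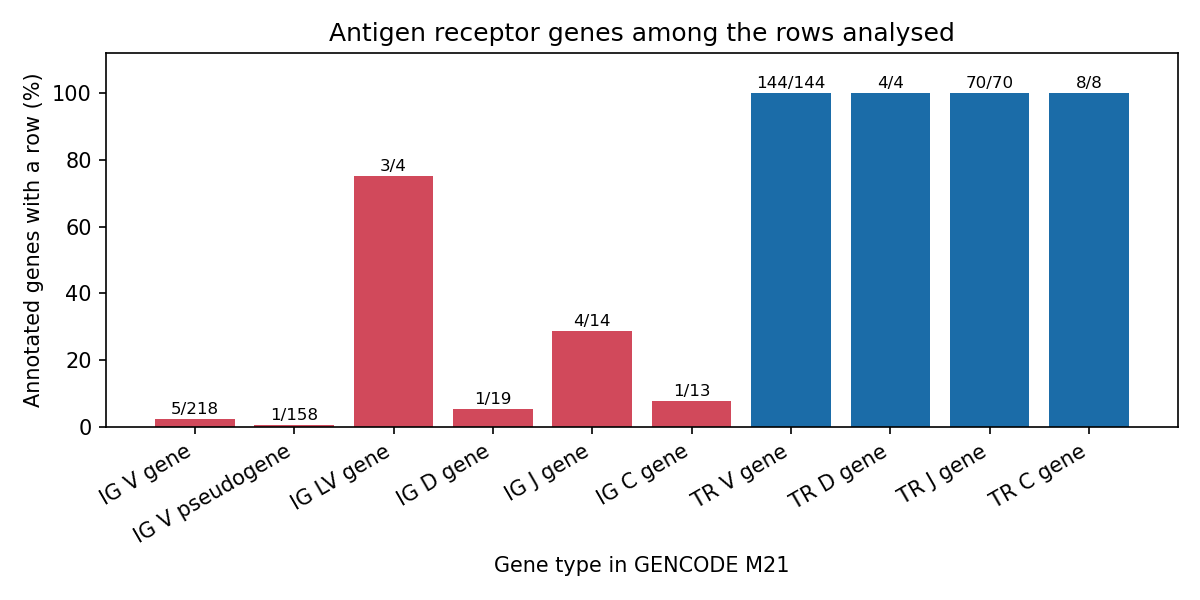
Percent of the annotated genes of each antigen receptor gene type (x axis) that had a row in the table (y axis), with the counts above the bars, for immunoglobulin (IG, red) and TCR (TR, blue) genes. All 4 TCR types reached 100%, and immunoglobulin V genes 2.29%.

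The kappa members belong to the Igkv4 family, which has 33 models, and they are shown whole because they held most of the V segment reads. The letters are the coding strand of the GRCm38.p6 reference genome, which is mm10 and of the C57BL/6J strain. The FVB alleles of the tumors may differ from it, which was not tested. Each row spans the 288 bases of the V exon, without the exon of the leader peptide. Capitals mark the bases at which Igkv4-62 differs from either of the other segments, and in those segments the bases that differ from Igkv4-62.
Igkv4-62 (chr6:69399810-69400097, minus strand): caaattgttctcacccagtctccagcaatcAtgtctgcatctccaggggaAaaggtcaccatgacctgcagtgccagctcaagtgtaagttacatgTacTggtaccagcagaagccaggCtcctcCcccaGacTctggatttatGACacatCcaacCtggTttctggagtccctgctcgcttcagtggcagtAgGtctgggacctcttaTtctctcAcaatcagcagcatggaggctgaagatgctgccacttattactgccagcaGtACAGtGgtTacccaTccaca
Igkv4-54 (chr6:69631646-69631933, minus strand): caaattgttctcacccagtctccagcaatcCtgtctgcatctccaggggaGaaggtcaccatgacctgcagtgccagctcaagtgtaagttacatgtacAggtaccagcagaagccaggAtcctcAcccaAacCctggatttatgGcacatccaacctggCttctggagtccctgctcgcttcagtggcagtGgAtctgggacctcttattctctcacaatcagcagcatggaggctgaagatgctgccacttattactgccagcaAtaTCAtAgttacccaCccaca
Igkv4-71 (chr6:69243158-69243445, minus strand): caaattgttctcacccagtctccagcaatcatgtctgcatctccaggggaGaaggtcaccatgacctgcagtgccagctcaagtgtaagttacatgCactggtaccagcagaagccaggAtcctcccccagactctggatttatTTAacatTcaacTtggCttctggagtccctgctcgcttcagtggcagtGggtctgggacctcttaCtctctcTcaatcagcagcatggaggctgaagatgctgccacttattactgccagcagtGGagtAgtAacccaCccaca

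Igkv4-54 and Igkv4-71 each differed from Igkv4-62 at 17 of 288 bases, an identity of 94.1%. They differed from each other at 20 bases, an identity of 93.1%. The part of a read that lies on a stretch with no capitals matches more than 1 of them.

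The highest kappa member was Igkv4-62 (ENSMUSG00000094262). It had 0.113 FPKM in tumor 1 from 1 read, no read in tumor 2 and 1.34 FPKM in tumor 3 from 8 reads. The 95% Poisson interval of tumor 3 was 0.577 to 2.64 FPKM and that of tumor 1 was 0.00286 to 0.630, so the intervals overlapped. The interval of tumor 2 was 0 to 0.675 FPKM and also overlapped that of tumor 3. Such intervals and limits cover counting error only.

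Igkv4-54 (ENSMUSG00000094319) had 0.113 FPKM in tumor 1 from 1 read, no read in tumor 2 and 0.334 FPKM in tumor 3 from 2 reads. Igkv4-71 (ENSMUSG00000073028) had no read in tumors 1 and 2 and 0.167 FPKM in tumor 3 from 1 read. Tumor 3 was thus the highest tumor for all 3 kappa segments and had reads on each of them. Over the 3 kappa rows together, the Poisson intervals were 0.242 to 7.22, 0 to 3.69 and 5.49 to 19.7 reads in tumors 1, 2 and 3. On each row 1 read was 0.113, 0.183 and 0.167 FPKM in the respective tumors. In FPKM the summed interval of tumor 3 thus lay above the others, by counting error only. A count of 0 was taken to allow up to 3 reads. This limit was 0.339, 0.549 and 0.502 FPKM in the respective tumors, and of the kappa values only that of Igkv4-62 in tumor 3 exceeded its limit.

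Within the kappa reads of tumor 3, Igkv4-62 held 8 of 11 reads, or 72.7%, with a 95% Wilson interval of 43.4% to 90.3%. The inverse Simpson index, which gives the number of equally used segments with the same evenness, was 1.75 for these 11 reads. In tumor 1, 2 kappa reads fell on 2 segments, an index of 2.00. The index cannot exceed 3 here, the number of Igkv rows, and so does not describe the usage of the 160 Igkv models.

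The heavy chain members of the Ighv6 family, which has 7 models, are Ighv6-4 and Ighv6-5. They are shown because Ighv6-4 was the sole heavy chain member with reads. Capitals mark the 41 of 297 bases at which they differ, an identity of 86.2%.
Ighv6-4 (chr12:114406477-114406773, minus strand): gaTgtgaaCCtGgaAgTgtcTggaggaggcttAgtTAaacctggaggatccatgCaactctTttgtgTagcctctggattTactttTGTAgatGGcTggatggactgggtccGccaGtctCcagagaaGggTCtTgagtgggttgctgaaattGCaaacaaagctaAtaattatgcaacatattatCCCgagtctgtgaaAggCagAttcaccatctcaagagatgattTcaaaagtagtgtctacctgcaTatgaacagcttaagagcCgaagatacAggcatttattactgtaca
Ighv6-5 (chr12:114416599-114416895, minus strand): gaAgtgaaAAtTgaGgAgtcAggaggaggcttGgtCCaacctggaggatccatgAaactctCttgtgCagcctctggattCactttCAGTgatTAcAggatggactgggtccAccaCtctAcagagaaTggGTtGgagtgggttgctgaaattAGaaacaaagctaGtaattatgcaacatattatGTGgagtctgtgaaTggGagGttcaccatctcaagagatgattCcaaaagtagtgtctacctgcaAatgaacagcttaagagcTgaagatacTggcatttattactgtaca

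Ighv6-4 (ENSMUSG00000094174) had 0.329 FPKM in tumor 1 from 3 reads and no read in tumors 2 and 3. Its interval in tumor 1 was 0.0678 to 0.961 FPKM, and those of tumors 2 and 3 were 0 to 0.655 and 0 to 0.598 FPKM. The difference between tumors was therefore not detectable at this depth. Ighv6-4 held 3 of 3 Ighv reads of tumor 1, or 100%, with a Wilson interval of 43.9% to 100%, and the inverse Simpson index was 1. Ighv6-5 (ENSMUSG00000096407) had no read in any tumor.

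The remaining members are Ighv5-8 (ENSMUSG00000103262), at chr12:113654967-113655244, and Ighv1-13 (ENSMUSG00000090765), at chr12:114630680-114630973. The V segments with these names are annotated as pseudogenes, which give no working V region. Neither had a read in any tumor. The limits of 3 reads ran from 0.332 FPKM for Ighv1-13 in tumor 1 to 0.569 FPKM for Ighv5-8 in tumor 2.

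**Figure D2:**
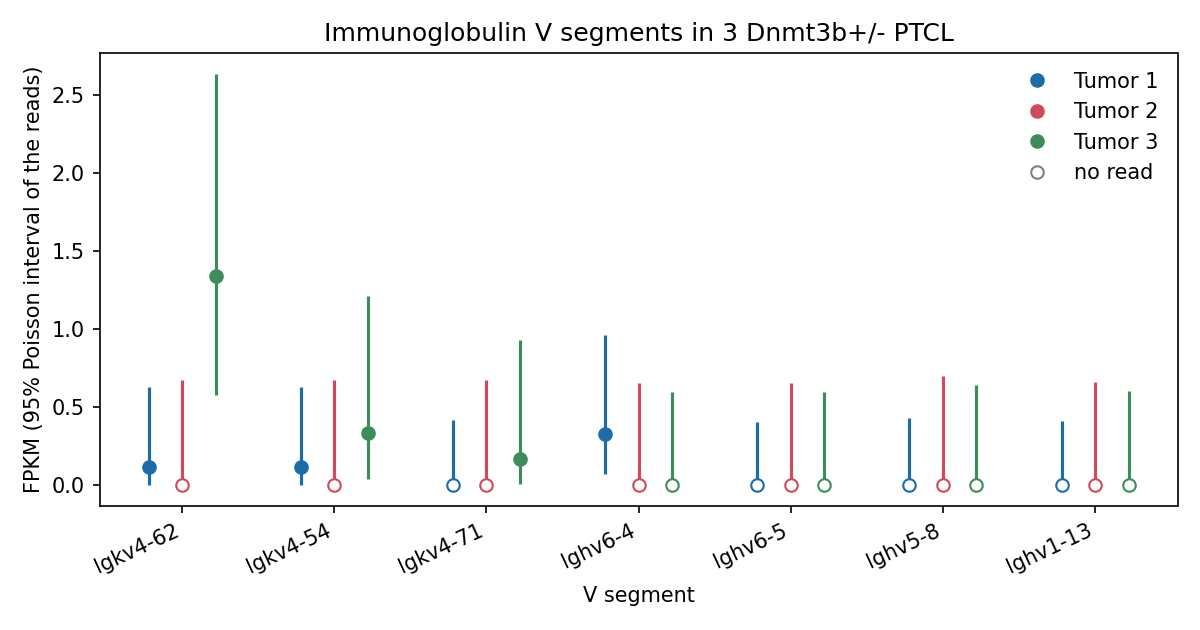
FPKM (y axis) of the 7 V segments (x axis) in tumors 1, 2 and 3, with 95% Poisson intervals of the reads as lines and open circles where no read was seen. Igkv4-62 in tumor 3 is the highest point, at 1.34 FPKM, and tumor 2 has open circles throughout.

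Over all 7 members, 4 had a read in at least 1 tumor and 3 had none. In tumor 1, 3 of 7 members had a read, where 56.4% of all genes did. In tumor 2, 0 of 7 had a read, where 52.7% of all genes did. In tumor 3, 3 of 7 had a read, where 50.2% of all genes did. The V segments together had 5, 0 and 11 reads.

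With rows without a read taken as 0, the FPKM of the members summed to 0.555, 0 and 1.84. The mean was 0.798 ± 0.943 (SD, n = 3), a spread wider than the mean itself. Without tumor 3 the mean was 0.277, and without tumor 2 it was 1.20. With rows without a read at their deposited FPKM, the sums were 0.960, 1.15 and 2.43, with a mean of 1.51. Tumor 1 and not tumor 2 was then the lowest. The kappa segments had 13 of the 16 reads and the heavy segments 3. Tumor 1 had both kappa and heavy reads, and tumor 3 kappa reads only. No lambda V segment was among the rows, so no kappa share of the light chains was given.

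A segment was called held by a single tumor when that tumor had about 2 times the FPKM of the other tumors together, or more, and the segment had at least 30 reads. Of all 14447 genes with that many reads, 10.3% were so held. Of the members, 0 reached 30 reads, and Igkv4-62 came nearest with 9 reads. For comparison, the 144 TCR V genes had 9007, 5150 and 3995 reads. Their reads were uneven, with a median of 2, 0 and 1 reads per gene. The highest beta chain segments were Trbv12-2, Trbv20 and Trbv5, with 66.4%, 99.0% and 81.5% of the Trbv FPKM. The highest alpha chain segments were Trav7-1, Trav6n-5 and Trav14-1, with 76.5%, 34.1% and 24.2% of the Trav FPKM. TCR V usage could thus be given over all 144 genes, where the immunoglobulin rows gave 16 reads.

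V segments of a family resemble each other, which bears on how reads are placed. Of 346 V exons, 339 had an identity to a nearest other V segment, with a median of 94.5%, and 18 of the 346, or 5.20%, shared an exact stretch of at least 150 bases, the read length, with another V segment of the locus. The kappa members lay above this median. Igkv4-54 was 96.7% identical to Igkv4-61, Igkv4-62 was 95.4% identical to Igkv4-55, and Igkv4-71 was 95.4% identical to Igkv4-68. Their longest exact shared stretches were 101, 91 and 121 bases. The heavy members lay below it, from Ighv1-13 with 84.5% identity to Ighv6-5 with 92.3%. No member shared a stretch of 150 bases, but shorter parts of a read could match a copy. The authors' quantification kept reads whose mapping quality reached 50, which leaves out reads that STAR places at several sites, so reads from shared stretches may be missing from these values.

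**Figure D3:**
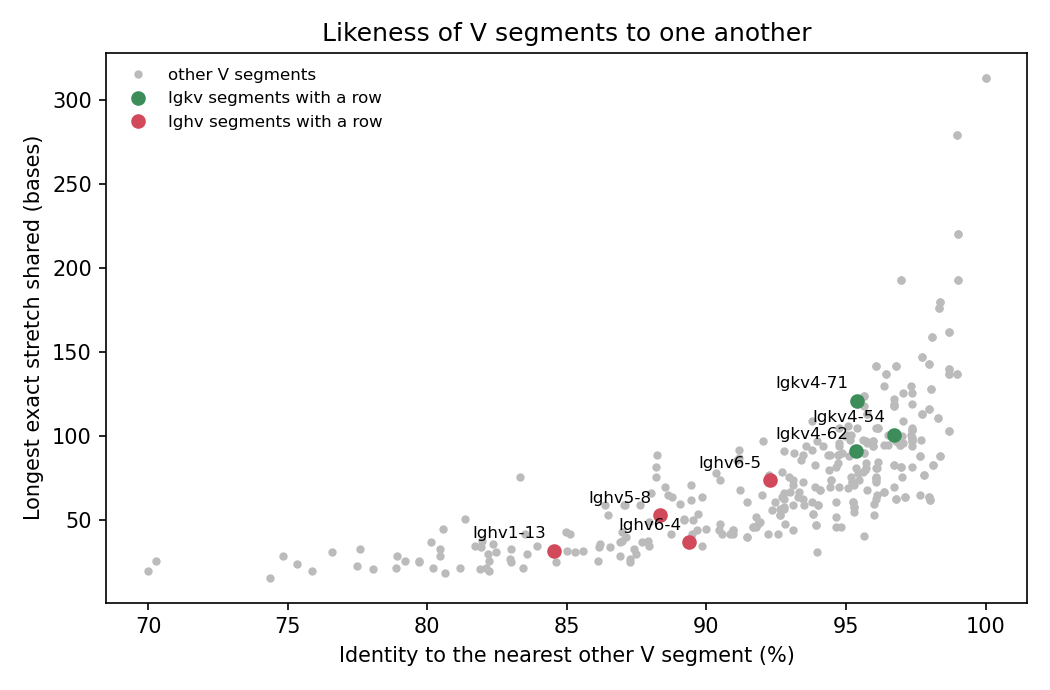
Identity of each annotated V exon to the nearest other V segment in percent (x axis) against the longest exact stretch it shares with another segment of its locus in bases (y axis). The 3 kappa members, in green, lie at 95.4% to 96.7% identity and the heavy members, in red, at 84.5% to 92.3%.

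Joining of a V segment needs a recombination signal at its 3′ end, which the RAG proteins bind. The signal is a heptamer, CACAGTG, a spacer and a nonamer, ACAAAAACC, and the spacer is 12 bases in kappa and 23 bases in heavy chain V segments. The signals of 5 members are shown because the segment with the most reads had an unusual one. The coding strand was searched at the end of the V exon, with a spacer of that length or 1 base more or less, and capitals mark the heptamer and nonamer bases that match these letters.
Igkv4-62 (chr6:69399784-69399811, minus strand): CACAGTGatacagactggaACcctctaa
Igkv4-54 (chr6:69631620-69631647, minus strand): CACAGTGatacagactagaACAAAAACC
Igkv4-71 (chr6:69243132-69243159, minus strand): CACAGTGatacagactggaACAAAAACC
Ighv6-4 (chr12:114406435-114406473, minus strand): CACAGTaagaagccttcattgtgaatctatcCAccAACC
Ighv6-5 (chr12:114416557-114416595, minus strand): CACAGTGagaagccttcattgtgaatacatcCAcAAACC

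All 3 kappa signals had 7 of 7 heptamer bases. Igkv4-54 and Igkv4-71 had 9 of 9 nonamer bases, and Igkv4-62 had 2 of 9 in the reference. Of 100 Igkv genes, 87.0% had the whole heptamer and 97.0% had at least 7 nonamer bases, while 2 of them had 2 or fewer. Igkv4-62, 1 of those 2, was the member with the most reads. Reads on a V exon do not show whether it was joined, since unjoined V segments can be transcribed. In the heavy locus, Ighv6-5 had 7 heptamer and 7 nonamer bases, and Ighv6-4 had 6 of each. Of 113 Ighv genes, 72.6% had the whole heptamer and 69.0% had at least 7 nonamer bases. Ighv1-13 had 7 and 7, and no signal with at least 5 heptamer bases was found at Ighv5-8. Matching letters are a description of the reference and not of the tumors' alleles.

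V segment promoters often carry the octamer ATGCAAAT, or ATTTGCAT on the other strand, to which the factors Pou2f1 and Pou2f2 bind with the B cell coactivator Pou2af1. Both strands were searched from 250 bases before to 50 bases after the start of the leader exon. The 5 members annotated as V genes all held the octamer, as did 77.6% of 214 V genes with a leader exon. Of 32851 promoters of the same length in the RefSeq table for GRCm38.p6, 1.74% held it. In the 3 kappa members it began 107 bases before the start, and in Ighv6-4 and Ighv6-5 it began 125 bases before it. The kappa and the heavy form are shown with the octamer in capitals.
Igkv4-62 (chr6:69400428-69400467, minus strand): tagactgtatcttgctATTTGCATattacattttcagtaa
Ighv6-4 (chr12:114407063-114407102, minus strand): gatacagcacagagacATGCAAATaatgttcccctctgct

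The 3 octamer factors were lowest in tumor 2, as were 37.1% of all genes with at least 30 reads. Pou2af1 had 13.8, 1.94 and 16.7 FPKM. Pou2f2 had 3.87, 0.659 and 1.87 FPKM, and Pou2f1, which most cells express, had 2.50, 1.75 and 2.45. The 3 genes summed to 20.1, 4.35 and 21.01 FPKM, so the tumor with no V segment read also had the least of them. Their part in the V segment values was not tested.

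The kappa J segments gave more kappa reads than the V rows. The rows of Igkj2, Igkj3 and Igkj5 span 43, 36 and 42 bases, less than a read of 150 bases. Division by so short a length raises their FPKM, which can be compared between tumors but not with those of longer rows. Igkj2 had 113, 14.7 and 143 FPKM, with 95% Poisson intervals of 95.4 to 132, 7.60 to 25.7 and 120 to 170. Igkj5 had 106, 23.8 and 141 FPKM, with intervals of 89.1 to 125, 14.4 to 37.2 and 117 to 168. In both segments the interval of tumor 2 lay below those of tumors 1 and 3. Igkj3, whose joining is rarely productive, had 11.8, 1.46 and 8.02 FPKM. The ratio of Igkj2 to Igkj5 was 1.06, 0.617 and 1.02. A primary transcript joined to Igkj2 also carries Igkj5 in its intron, so these rows do not separate spliced usage of a J segment from intron reads.

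The 3 Igkj rows together had 299, 32 and 257 reads, against 2, 0 and 11 reads on the 3 Igkv rows. At the ratio of tumor 3, the 32 Igkj reads of tumor 2 would go with 1.37 Igkv reads, fewer than the 3 that a count of 0 allows. A lower Igkv level per Igkj read in tumor 2 was thus not detectable at this depth. The 299 Igkj reads of tumor 1 would go with 12.8 Igkv reads, and the 2 reads seen have a Poisson interval of 0.242 to 7.22. That interval does not count the error of the other 3 counts.

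Heavy and lambda RNA were seen in other rows. Ighj2, a heavy chain J segment, had 2.41 FPKM in tumor 1 from 4 reads, no read in tumor 2 and 7.13 FPKM in tumor 3 from 8 reads. Ighd5-6, a D segment of 12 bases, had no read in any tumor. Iglc2, a lambda constant gene, had 15.0, 3.74 and 13.2 FPKM, with intervals of 13.3 to 16.8, 2.71 to 5.04 and 11.3 to 15.4. Tumor 2 was again below the others. Row lengths were 54 bases for Ighj2 and 606 for Iglc2, so FPKM do not rank heavy, kappa and lambda RNA. In tumor 1, 279 reads on Iglc2 gave 15.0 FPKM, while 299 reads on the 3 Igkj rows gave 231. Of 12 constant genes listed, Iglc2 was the 1 with a row.

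B cell genes also were lowest in tumor 2. Of 18 genes of a B cell list, 15 had their lowest FPKM there, where 37.1% of all genes with at least 30 reads did. All 18 had reads in each tumor. The list summed to 107, 66.1 and 177 FPKM. Of the 66.1 FPKM of tumor 2, 36.5 came from Cd22, which was highest there. In tumor 3, the tumor with the most V segment reads, 14 genes of the list were highest, as were 14.7% of all genes with at least 30 reads. Their part in the V segment values was not tested.

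Among the defining B cell genes, Cd79a, a signaling chain of the B cell receptor and the most abundant of the list by its mean over tumors, had 23.1, 7.31 and 49.0 FPKM. Ms4a1, which encodes the surface protein CD20, had 3.98, 0.400 and 5.31. Pax5, a factor that holds B cell identity, had 1.75, 0.506 and 2.43, and Cd79b, the partner of Cd79a, had 20.1, 3.72 and 35.5. All 4 were highest in tumor 3 and lowest in tumor 2. The 3 exceptions, Cd22, Cd72 and Tnfrsf13c, were lowest in tumor 1, and Cd22, an inhibitory lectin of B cells, had 5.84, 36.5 and 13.9 FPKM.

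Plasma cells secrete antibody and carry far more immunoglobulin RNA than resting B cells. Of 11 plasma cell genes, 7 were lowest in tumor 2, beside the 37.1% of all genes given above, while tumors 1, 2 and 3 were the highest for 4, 2 and 5 of them, beside 51.5%, 33.8% and 14.7% of all genes with at least 30 reads. Mzb1, a chaperone of antibody assembly, had 11.0, 2.62 and 25.8 FPKM, Tnfrsf17, a survival receptor, had 0.519, 0.0647 and 1.12, and Sdc1, a surface proteoglycan, had 0.957, 0.595 and 1.09. Jchain, which links antibody chains into polymers, departed from this order with 814, 185 and 179 FPKM. It made up most of the list's sum of 896, 231 and 256 FPKM. Xbp1, a factor of the secretory program, had 36.3, 11.1 and 11.3 FPKM, and Txndc5, an enzyme of protein folding, had 22.8, 25.5 and 28.5. The V segment sum thus had its highest tumor in common with 5 of the 11 genes, Txndc5, Mzb1, Derl3, Sdc1 and Tnfrsf17. It did not share it with the others, among them Jchain and Xbp1.

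**Figure D4:**
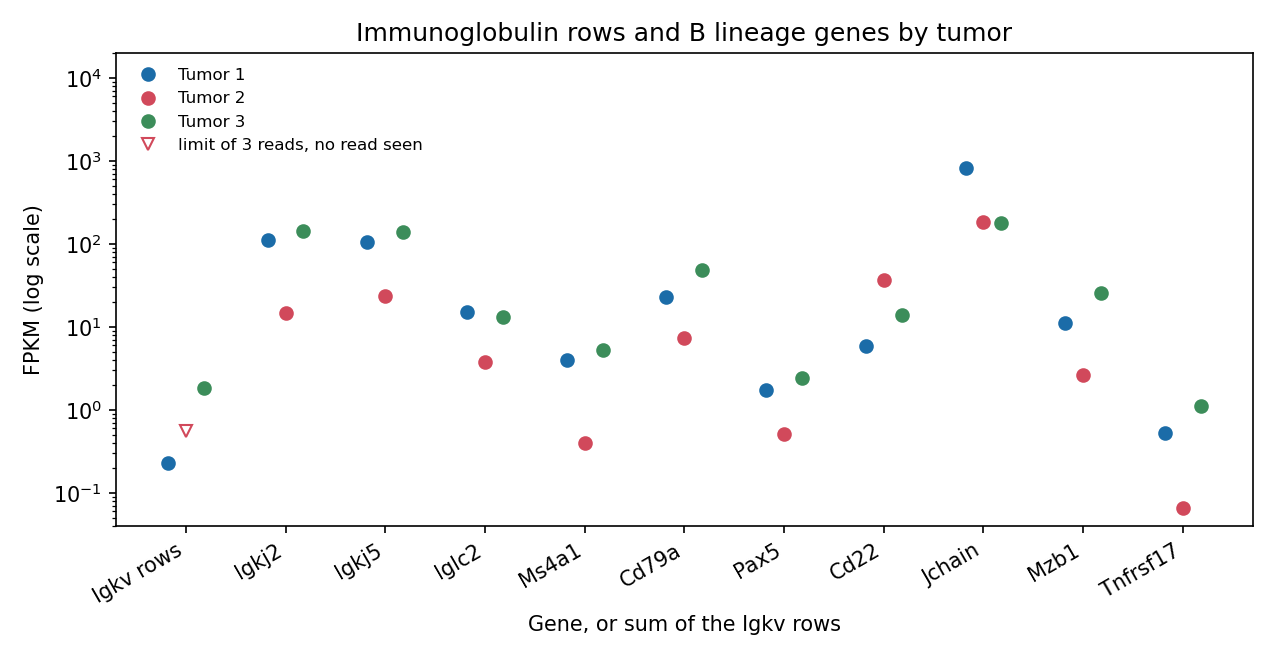
FPKM on a log scale (y axis) of the summed Igkv rows, other immunoglobulin rows and B lineage genes (x axis) in tumors 1, 2 and 3, with the limit of 3 reads of 1 Igkv row as an open triangle where no read was seen. Tumor 2 is lowest for Igkj2, Igkj5, Iglc2, Ms4a1, Cd79a, Pax5, Mzb1 and Tnfrsf17, and highest for Cd22. The Igkj rows are shorter than a read, so their heights compare between tumors but not with the other genes.

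Among genes of V(D)J joining, Rag1 had 2 reads in tumor 1 and none in the others, and Rag2, its partner in cutting the signals, had none in any. The list of 8 joining genes summed to 22.8, 8.23 and 11.4 FPKM, with the DNA repair genes Prkdc at 5.01, 3.73 and 5.07 and Dclre1c at 2.90, 2.68 and 1.57. Dntt, which adds bases at the joins in immature B and T cells, had 10.3, 0.0743 and 0.747 FPKM. Of the 6 early B cell genes, which include Rag1, Rag2 and Dntt, the defining gene Vpreb1, part of the surrogate light chain, had 0.205, 0.568 and 0.433 FPKM. Igll1, the other defining gene, had no read in any tumor. As deposited, the list summed to 10.6, 0.796 and 1.32 FPKM, most of it from Dntt in tumors 1 and 3 and from Vpreb1 in tumor 2.

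Germinal centers are where B cells mutate their joined V segments. The germinal center list of 7 genes summed to 5.25, 6.22 and 4.21 FPKM, with S1pr2 at 0.825, 2.18 and 0.767, Bcl6 at 1.12, 1.46 and 0.992 and Mybl1 at 1.51, 0.810 and 0.722. In the list of 4 genes of B-1 cells, which summed to 106, 120 and 108 FPKM, Spn had 70.7, 66.5 and 73.7 and Cd5 had 34.5, 53.7 and 32.9, and both are also T cell genes. Fcrl5, a receptor of B cells, had 0.655, 0.0303 and 0.913.

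Myeloid and acinar genes differed between the tumors in other orders than the V segment sums. The 8 myeloid genes summed to 380, 93.8 and 35.1 FPKM, and 7 of them were highest in tumor 1, as were 51.5% of all genes with at least 30 reads, with Lyz2 at 215, 33.1 and 20.3, Marco at 111, 2.44 and 1.60 and Cd68 at 19.6, 51.2 and 9.27. The 10 pancreatic acinar genes summed to 95.3, 481 and 1.64 FPKM as deposited, and all 10 were highest in tumor 2, as were 33.8% of all genes with at least 30 reads, with Ctrb1 at 33.9 and 198 FPKM and no read in tumor 3, Prss2 at 14.9, 52.1 and 0.177 and Cela2a at 6.72, 50.7 and 0.196. The tumor without V segment reads thus had the most acinar RNA. Whether tissue beside the lymph node bore on the V segment values was not tested.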

How the data were processed

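RNA-seq of 3 Dnmt3b+/- PTCL was analysed; bisulfite sequencing was not used here. The authors aligned paired-end reads of 150 bases to mm10 with STAR, kept those whose mapping quality reached 50, quantified them with SeqMonk and deposited FPKM, and the submitters' notes and the methods name different sequencers. The library depths follow from the FPKM of genes without a read, which stand at the value of 0.9 read. Reads were recovered from FPKM and GENCODE M21 exon lengths for 33576 genes. Within 0.02 reads, 94.6%, 94.7% and 94.7% of values were whole, and all member values were. Intervals are 95% Poisson or Wilson intervals.

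Members and lists were chosen with earlier results of these data known. Genes named were all members, the 3 highest and the defining genes of each list, some of which are not reported here, and the highest Trbv and Trav segments. Cd72, Tnfrsf13c, other immunoglobulin rows, joining-signal and octamer searches, and the count of B cell genes lowest in tumor 2, were added after values were seen. Alternatives were other scalings, low-value filters, V families, Shannon entropy and leaving out each tumor. V exons were compared with BLAST 2.17.0. The recovery of depths and reads was tested on simulated data made with the same 0.9 read value and exon lengths. The other steps were not tested in this way. Python 3.11, pandas 2.3.3, NumPy 2.4.6, SciPy 1.17.1, statsmodels 0.14.6 and matplotlib 3.10.9 were used.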

Additional observations from a re-analysis of the deposited data

How the results depend on the processing

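The Ighv share and index rest on 3 reads of 1 segment, and the Igkv share and index on tumor 3 with rows of equal length, so several alternatives could not move them. With FPKM rescaled to sum to 1000000, the mean V segment sum was 3.72, which follows from the larger unit, and tumor 3 kept the highest sum. Leaving out 1 tumor gave means of 0.277 to 1.20. With rows without a read at their deposited FPKM, an alternative chosen after seeing the data, the sums were 0.960, 1.15 and 2.43, so that tumor 1 and not tumor 2 was lowest. The inverse Simpson index of Igkv segments was 1.47 above 0.2 FPKM, 1 for V families and 1.75 to 2.00 with 1 tumor left out. The exponential of Shannon entropy, used as the effective number in its place, was 2.14. The share of the highest Igkv segment was 100% for V families, since all members are Igkv4, and 50% to 72.7% with 1 tumor left out. Without a minimum of reads and with rows without a read at 0, also chosen after seeing the data, 4 segments were held by a single tumor. These 4 were all the members with a read, and at this setting a row with 1 read in all is always held. The share of all genes at this setting was not calculated, so no comparison is drawn. The 15 B cell genes lowest in tumor 2 stayed 15 in number under the 3 added settings. No paired analysis was possible because there was 1 group.

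The values rest on 16 reads on 7 rows. The likeness of usage between tumors and the share of each locus total were not calculated, since tumor 2 had no V segment read, nor was the kappa share, since no Iglv row was among the members. Ighv indices without tumor 1 could not be given.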
